A study of Mus musculus with 24 samples.

Results

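The genes described here are 33 genes of cholesterol and lipid metabolism, taken by symbol from a list and found in the table of 56748 genes that the study deposited. They were divided by role into 7 genes of the mevalonate steps, 11 genes of the steps from squalene to cholesterol, 5 genes of sterol sensing, 5 genes of fatty acid synthesis and 5 genes of lipid efflux, transport and uptake. All 33 were found once in the table, and all 33 passed the filter on low counts in each of the 12 comparisons. No measured value was used to choose them, but the list was drawn up when results of these libraries were already known.

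The samples were first mandibular molar tooth germs of ICR mice, an outbred strain, taken on E13 for the cap stage and on E15 for the bell stage, and no transgene or drug was used in these groups. The mesenchyme was sequenced in 8 groups of 3 libraries. The study's methods name triplicate sequencing and also 2 biological replicates, so that fewer biological replicates than libraries may stand behind a group. Cap-W and Bell-W were undivided, Cap-L and Bell-L were the lingual part, and Cap-B and Bell-B the buccal part, after the germ had been split with a fine needle and the mesenchyme freed with the protease dispase II. The groups Cap-L+2D and Cap-B+2D had been split in the same way at the cap stage and then kept in culture for 2 days, which is also the time between the cap and bell samples. The germs came from 36 embryos of 3 pregnant mice, and no label says which embryos went into which library, so that the libraries of a group may not be separate animals and p-values measure only the spread between these libraries. The comparison of culture with the in vivo stages asked how far a part of the cap stage, kept alone in vitro, followed the course that it takes in the embryo.

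Cells make cholesterol from acetyl-CoA through mevalonate and squalene. When membrane sterol is low, the SREBP transcription factors are carried from the endoplasmic reticulum, cut in the Golgi and sent to the nucleus, where they raise nearly all genes of the route, and the INSIG proteins hold them back when sterol is plentiful. Surplus cholesterol has the opposite effect through its oxidised forms, which activate the nuclear receptor LXR and with it genes for export such as Abca1, Abcg1 and Apoe. In the embryo, cholesterol is also needed to finish Hedgehog proteins, a signal that the tooth germ uses.

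The count on genes ran from 20581720 to 39266497 read pairs in a library. Levels are given as CPM, which are counts scaled to 1000000 of the library after TMM scaling over all 24 libraries, and 3 counts in a library came to between 0.0764 and 0.146 CPM. The libraries of the parts lay close to each other within a group, with a chi-square per degree of freedom between libraries of 1.29 to 8.96. A value of 1 is sampling noise alone, and Cap-B was at 1.29 to 1.45. The small p-values in the parts rest on this small spread. Libraries of the undivided mesenchyme lay further apart. They were at 7.12 to 142 in Cap-W, where replicate 1 stood apart from both others. In Bell-W they were at 11.5 to 55.0, and replicate 3 stood apart. All 9 markers on a list for dental mesenchyme passed the filter on low counts in every comparison. From cap to culture 2 of them were called higher and 3 lower in the lingual part, and 2 and 2 in the buccal part. Markers of other cells were present as well. Those of endothelium, 7 on the list, summed to 444 to 453 CPM in Cap-B and 175 to 182 CPM in Cap-B+2D. The summed level of 9 epithelial markers was 512 to 559 CPM in Cap-L and 88.7 to 89.8 CPM in Cap-B+2D, and that of 5 erythroid markers went from 1775 to 2179 CPM in Cap-L to 20.1 to 24 CPM in Cap-L+2D. The series' design text calls the undivided samples whole germs, while the extraction text has the mesenchyme isolated, and the epithelial sum in Cap-W, 374 to 563 CPM, overlapped that in Cap-L. Bulk libraries cannot tell fewer cells of a type from less RNA per cell. The 6 adipocyte markers were too low to be tested in any comparison, with a summed level of at most 0.582 CPM in any library, and Lep was at 0 in all groups but Cap-W.

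Measured per kilobase of exon, which allows genes to be compared with each other, the members covered a wide range. In Cap-L, the desaturase gene Scd2 was at 157 ± 5.29 RPKM (SD, n = 3). Acat2 stood at 55.6 ± 3.34 RPKM, Acly at 54.5 ± 2.95 RPKM and Hmgcs1 at 52.1 ± 0.678 RPKM. The gene of the sterol receptor LXR alpha, Nr1h3, was at 0.349 ± 0.00665 RPKM. Of the 33 genes, 25 had their highest group mean in 1 of the 2 cultured groups.

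**Figure D1:**
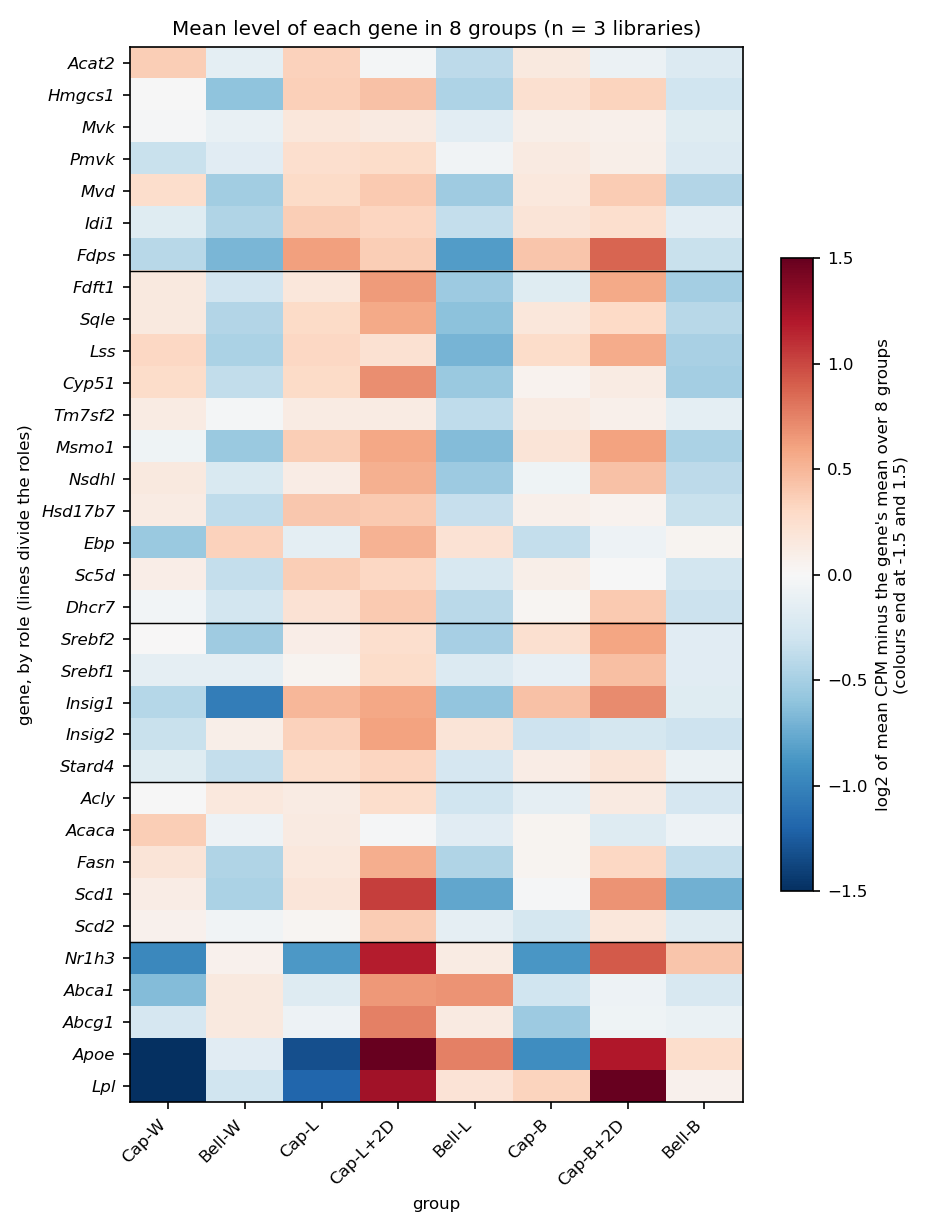
Mean level of the 33 genes (rows, in blocks by role) in the 8 groups (columns, n = 3 libraries each). Colour is the log2 of the group's mean CPM minus the mean of the gene's 8 values, blue below and red above it. Most genes of sterol synthesis are blue in the 3 bell columns and red in the 2 cultured columns, and the genes of the lowest block are mostly blue at the cap stage.

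Most genes of sterol synthesis fell from cap to bell in the lingual part in the embryo, fewer of them were called lower in the buccal part, and several genes of lipid export and uptake rose. In the lingual part, 20 of the 33 members were called lower at the bell stage, against 5.78% of all genes tested, and 4 were called higher, against 14.2%. A gene was called at an adjusted p under 0.05 in edgeR's quasi-likelihood test with an absolute log2 fold change over 0.5. The median log2 fold change of the 33 members between Cap-L and Bell-L was -0.60, and that of all genes tested was 0.00. In the buccal part 9 members were called lower, against 6.73% of all genes, and 2 were called higher, against 12.0%, with a median over the members of -0.34.

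After 2 days of culture the fall was not seen over the members as a whole. The level was above that of the cap stage in 25 of the 33 in the lingual and 26 in the buccal part. Acat2 lay below its cap level on both sides, as given below. No member was called lower in Cap-L+2D than in Cap-L, where 15.9% of all genes were, and 7 were called higher, against 19.6%. No member was called lower in Cap-B+2D than in Cap-B either, against 16.6% of all genes, and 6 were called higher, against 17.9%. The counts of members called higher lay near the background, and which members these were is given by role below. At an unadjusted p under 0.05, 3 members lay lower in Cap-L+2D and 3 in Cap-B+2D, and DESeq2 called 0 and 0 members lower. Set against the bell stage of the same side, 25 members were called higher in Cap-L+2D, against 14.4% of all genes, and none lower, against 16.8%. On the buccal side 17 were called higher in Cap-B+2D than in Bell-B, against 15.5%, and none lower, against 16.3%. The median of the members was 0.75 on the lingual and 0.61 on the buccal side, and that of all genes was -0.01 on both. DESeq2 called 0 and 0 members lower there, and 0 and 2 had a lower level at an unadjusted p under 0.05. These comparisons share libraries with each other, and their values are set side by side and are not independent.

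**Figure D2:**
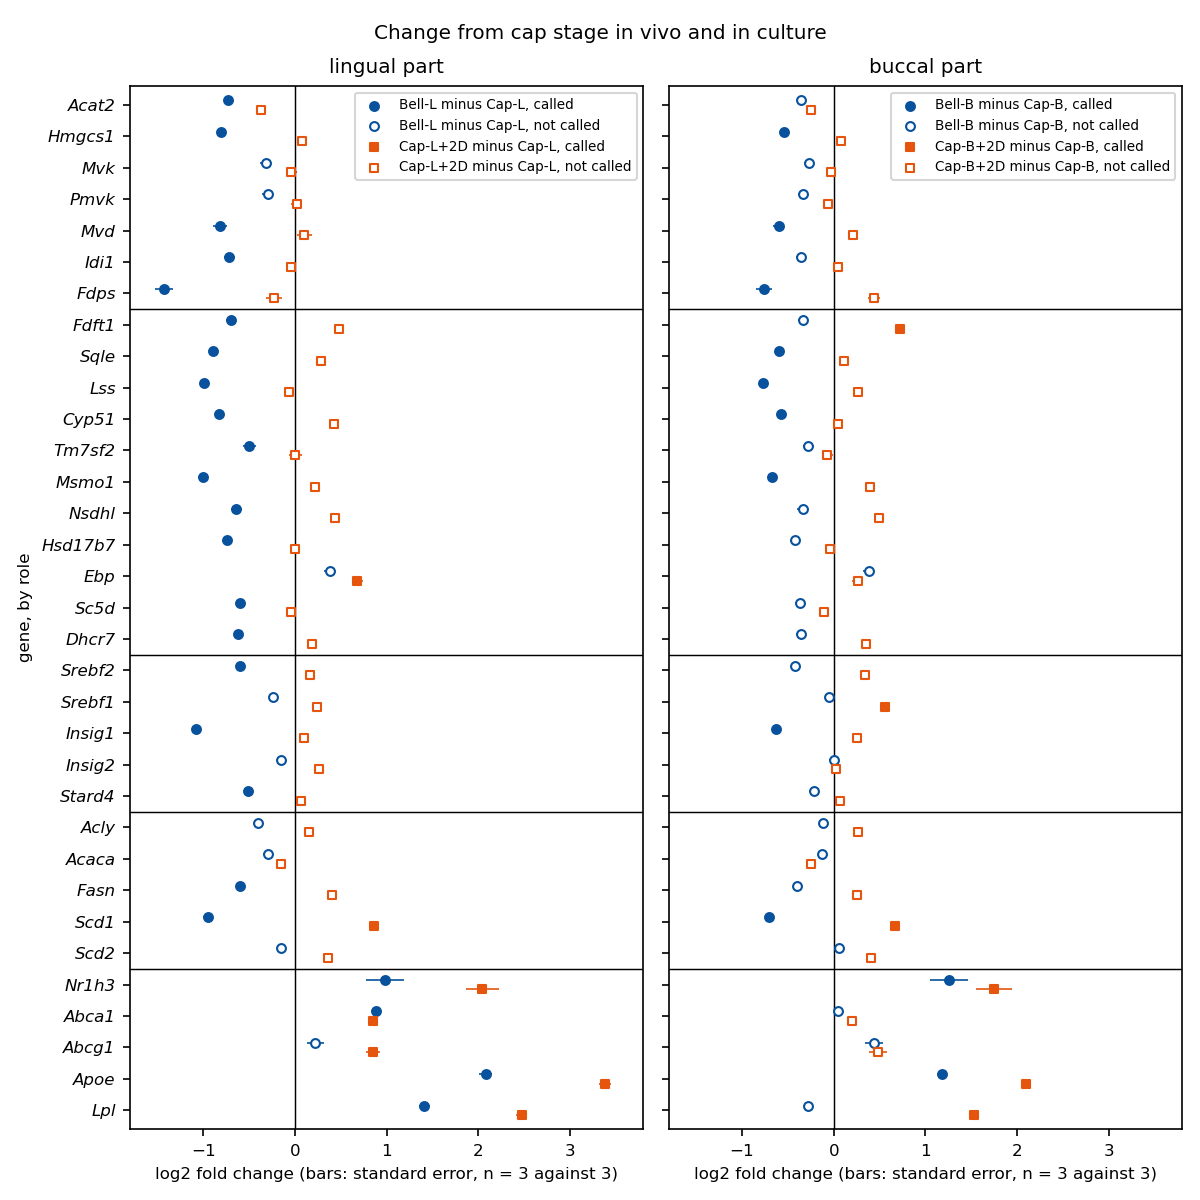
Log2 fold change from the cap stage of the same side for the 33 genes, in the lingual (left) and buccal (right) part. Circles give bell against cap, squares cap plus 2 days of culture against cap, filled where called, and bars are standard errors from edgeR (3 libraries against 3). In the upper 4 blocks the circles lie left of the squares for most genes, and in the lowest block the squares of the lingual part reach 3.38.

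The first 7 members turn acetyl-CoA into farnesyl diphosphate, and 5 of them were called lower in Bell-L and 3 in Bell-B than at the cap stage. Hmgcs1, which joins acetoacetyl-CoA and acetyl-CoA to HMG-CoA, was at 238, 243 and 237 CPM in the 3 Cap-L libraries, at 132, 139.5 and 135 CPM in Bell-L and at 254, 249.9 and 253 CPM in Cap-L+2D. The Bell-L libraries all lay below those of the other 2 groups, which lay next to each other. From Cap-L to Bell-L it fell by 0.81 ± 0.04 (adjusted p = 1.36e-14) on the log2 scale, and against Bell-L it was higher in culture by 0.89 ± 0.04 (adjusted p = 1.23e-15), while the change from Cap-L to Cap-L+2D was 0.08 ± 0.04 (adjusted p = 0.0719) and was not called. On the buccal side it was at 224, 219 and 216 CPM in Cap-B, 152, 155 and 149 CPM in Bell-B and 239, 239.6 and 227 CPM in Cap-B+2D. The order of the groups was the same, and the fall to Bell-B was 0.54 ± 0.03 (adjusted p = 2.33e-15).

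Mvd, the decarboxylase that yields isopentenyl diphosphate, was at 38.5, 48.9 and 38.4 CPM in Cap-L, 25.8, 22.1 and 23.1 CPM in Bell-L and 46.3, 40.6 and 47.7 CPM in Cap-L+2D. Its bell libraries were again lowest without overlap. It fell by 0.82 ± 0.08 (adjusted p = 5.69e-09) in the lingual and by 0.60 ± 0.06 (adjusted p = 2.77e-10) in the buccal part. Idi1, the isomerase that follows, was at 57, 52.9 and 53.6 CPM in Cap-L, 33.4, 33.2 and 32.4 CPM in Bell-L and 52.3, 57.4 and 48.6 CPM in culture. It was called lower in the lingual part, where it fell by 0.72 ± 0.06 (adjusted p = 1.19e-10), and had a log2 fold change of -0.36 ± 0.05 (adjusted p = 1.9e-07) in the buccal part, where its libraries did not overlap either but the fold lay under the limit. The difference between the sides was past the threshold, as given below with the other tests of that kind.

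Fdps makes farnesyl diphosphate, the branch point to sterols and to protein prenylation. It was counted at low levels, and 26.7% of its exon bases overlap another gene, from which read pairs were left out by the authors' counting. In Cap-L it was at 11.5, 10.4 and 11.2 CPM, in Bell-L at 4.19, 4.12 and 3.86 CPM and in Cap-L+2D at 8.13, 10.6 and 9.21 CPM. On the buccal side the values were 9.94, 9.3 and 9.7 CPM in Cap-B, 5.68, 5.66 and 5.8 CPM in Bell-B and 12.8, 12.8 and 14.2 CPM in Cap-B+2D. The cultured lingual libraries overlapped those of Cap-L, with 2 of the 3 below them, and the cultured buccal libraries all above those of Cap-B. The fall from cap to bell, 1.43 ± 0.10 (adjusted p = 1.46e-11) in the lingual and 0.76 ± 0.09 (adjusted p = 6.96e-09) in the buccal part, was the largest of the 7 on the lingual and on the buccal side.

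Acat2, the thiolase that makes acetoacetyl-CoA, was at 139, 151 and 135 CPM in Cap-L, 83.7, 85.8 and 85 CPM in Bell-L and 107, 107 and 113 CPM in Cap-L+2D. Its cultured libraries lay between those of both stages. The same held in the buccal part, with means of 123 CPM in Cap-B, 96.5 CPM in Bell-B and 104.9 CPM in Cap-B+2D. It fell by 0.73 ± 0.05 (adjusted p = 1.43e-12) to Bell-L and was not called in culture, with a log2 fold change of -0.37 ± 0.05 (adjusted p = 1.07e-07). The kinases Mvk and Pmvk moved less and lay under the limit on the fold in every comparison of 2 groups, with log2 fold changes from cap to bell of -0.32 ± 0.06 (adjusted p = 0.000136) and -0.30 ± 0.06 (adjusted p = 0.000198) in the lingual part. Mvk ranged from 29.4 to 46.6 CPM over all 24 libraries and Pmvk from 23.3 to 40.4 CPM.

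The next 11 genes carry squalene to cholesterol, and 10 of them fell from Cap-L to Bell-L, with log2 fold changes between -1.01 and -0.50. In the buccal part 4 were called lower, while 10 were lower at an unadjusted p under 0.05, most of them under the limit on the fold. The fall in the lingual part was largest in Msmo1, which removes methyl groups from the sterol ring. Msmo1 was at 83.6, 86.2 and 80.6 CPM in Cap-L, 38.6, 43.7 and 41.7 CPM in Bell-L and 99.7, 97.5 and 94.1 CPM in Cap-L+2D. On the buccal side it was at 75, 75.8 and 70.6 CPM in Cap-B, 46.4, 47.7 and 45.5 CPM in Bell-B and 104, 98.3 and 92.3 CPM in Cap-B+2D. On each side the 3 groups did not overlap, with the bell lowest and culture highest. It fell by 1.01 ± 0.05 (adjusted p = 1.12e-14) to Bell-L and by 0.67 ± 0.05 (adjusted p = 2.48e-14) to Bell-B, and culture lay above Bell-L by 1.23 ± 0.05 (adjusted p = 1.16e-16).

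Lss, which folds squalene epoxide into lanosterol, was at 74.1, 75.8 and 82.2 CPM in Cap-L, 39.4, 38.1 and 38.4 CPM in Bell-L and 71.4, 72.5 and 75.4 CPM in Cap-L+2D. On the buccal side it was at 75, 73.5 and 77.9 CPM, 44.8, 42.9 and 45.7 CPM and 89.7, 93.8 and 91.5 CPM in the same order of groups. The bell libraries were lowest on either side, and the cultured ones stood above Cap-B in the buccal part and overlapped Cap-L in the lingual part. Its fall was 0.99 ± 0.05 (adjusted p = 1.02e-14) in the lingual and 0.77 ± 0.04 (adjusted p = 4.92e-17) in the buccal part. Sqle, the epoxidase before it and a known control point of the route, was at 118, 126 and 125 CPM in Cap-L, 63.6, 64.8 and 67.1 CPM in Bell-L and 147, 149 and 149 CPM in Cap-L+2D. These 3 groups did not overlap, and Sqle fell by 0.90 ± 0.04 (adjusted p = 6.59e-15) to Bell-L and by 0.60 ± 0.04 (adjusted p = 3.01e-15) to Bell-B.

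Fdft1, squalene synthase, was the gene of sterol synthesis that was called higher in the cultured buccal part. It was at 25.8, 26.6 and 26.9 CPM in Cap-B, 20.8, 21.4 and 21 CPM in Bell-B and 44, 45 and 43.4 CPM in Cap-B+2D, so that the cultured libraries stood well clear of both stages. The rise over Cap-B was 0.72 ± 0.05 (adjusted p = 5.14e-15). On the lingual side it was at 33.7, 33.4 and 33.3 CPM in Cap-L, 21.2, 20.2 and 20.1 CPM in Bell-L and 46.6, 47.1 and 45.7 CPM in Cap-L+2D, where the difference of 0.48 ± 0.05 (adjusted p = 4.64e-09) fell short of the limit on the fold. Of the exon bases of Fdft1, 18.8% overlap Ctsb, and read pairs shared by both were not counted.

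Cyp51, the demethylase of lanosterol, was at 136, 131 and 129 CPM in Cap-L, 72.2, 74.9 and 73.4 CPM in Bell-L and 174, 179 and 176 CPM in Cap-L+2D. The corresponding buccal values were 116, 112 and 110.4 CPM, 78.2, 78 and 71.9 CPM and 123, 119 and 113 CPM. It stood highest in the cultured lingual libraries, clear of all others of the parts. Cyp51 fell by 0.83 ± 0.04 (adjusted p = 1.71e-14) to Bell-L and by 0.58 ± 0.04 (adjusted p = 5.6e-14) to Bell-B. Fdft1, with the values given above, was called lower in Bell-L and not in Bell-B. The remaining genes of which this held were Hsd17b7, Nsdhl, Dhcr7, Sc5d and Tm7sf2, enzymes of the later steps. Their log2 fold changes to Bell-L were -0.74, -0.64, -0.62, -0.60 and -0.50. The call of Tm7sf2 sat at the limit and was lost in 6 of the alternatives.

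Ebp went against the other 10. This sterol isomerase was at 15.9, 17.1 and 16.2 CPM in Cap-L, 21.2, 22 and 20.4 CPM in Bell-L and 25.5, 26.1 and 27.1 CPM in Cap-L+2D. Its cap libraries were the lowest of the 3 groups and its cultured libraries the highest, without overlap. It rose from Cap-L to Cap-L+2D by 0.68 ± 0.06 (adjusted p = 3.63e-10), as the one gene of sterol synthesis called in the lingual culture, and it lay higher in Bell-W than in Cap-W by 0.89 ± 0.14 (adjusted p = 0.00493). In the buccal part it was at 13.7, 14.9 and 14.1 CPM in Cap-B, 18.7, 18.5 and 18.8 CPM in Bell-B and 17.2, 16.7 and 17.9 CPM in Cap-B+2D, with no call.

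Of the 5 genes of sterol sensing, 3 were called lower in Bell-L and 1 in Bell-B. Insig1, which holds the SREBP proteins in the endoplasmic reticulum and is itself one of their targets, had the largest fall of the 5. It was at 131, 136 and 126 CPM in Cap-L, 59.4, 62.9 and 62.7 CPM in Bell-L and 138, 143 and 136 CPM in Cap-L+2D. In the buccal part it was at 124, 125 and 129 CPM in Cap-B, 82.5, 82.4 and 81.3 CPM in Bell-B and 154, 153 and 149 CPM in Cap-B+2D. Bell libraries were lowest and cultured libraries highest on each side, without overlap. It fell by 1.08 ± 0.04 (adjusted p = 3.15e-16) in the lingual and by 0.63 ± 0.03 (adjusted p = 1.55e-16) in the buccal part, and culture lay above bell by 1.17 ± 0.04 (adjusted p = 3.68e-17) and 0.88 ± 0.03 (adjusted p = 3.09e-21).

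Srebf2, which encodes the SREBP chiefly tied to sterol genes, was at 258, 261 and 267 CPM in Cap-L, 172, 172 and 173 CPM in Bell-L and 295, 279 and 298 CPM in Cap-L+2D. The buccal values were 289.8, 276 and 299 CPM, 216, 218 and 215 CPM and 349.5, 369.6 and 387 CPM. Srebf2 fell by 0.60 ± 0.04 (adjusted p = 8.48e-12) to Bell-L and had a log2 fold change of -0.42 ± 0.04 (adjusted p = 1.03e-11) to Bell-B, which was not called. Srebf1, whose product is more tied to fatty acid genes, was at 88.1, 83.1 and 89.7 CPM in Cap-B, 85.7, 83 and 84.2 CPM in Bell-B and 122, 129 and 139 CPM in Cap-B+2D. It rose in the buccal culture by 0.56 ± 0.04 (adjusted p = 1.24e-13) and in no other comparison with the cap stage was it called. Its cap and bell libraries overlapped in the buccal part, while in the lingual part those of Bell-L, at 84.2, 80.4 and 80.7 CPM, all lay below those of Cap-L, at 91.4, 102 and 97.8 CPM.

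Stard4, a carrier of sterol between membranes, was at 48.5, 48.7 and 50.1 CPM in Cap-L, 32.9, 34.1 and 35.7 CPM in Bell-L and 50.4, 52.5 and 49.8 CPM in Cap-L+2D. It fell by 0.51 ± 0.05 (adjusted p = 4.43e-09) to Bell-L, a call lost when Bell-L replicate 1 was left out, where the value was -0.49. Insig2, a second INSIG gene that is not raised by the SREBP proteins in the same way, was not called between cap, bell and culture on either side. Its lingual libraries ranged from 35.5 to 49.0 CPM and its buccal libraries from 24.4 to 27.4 CPM. The sides did not overlap at any stage.

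Since the genes of sterol synthesis moved together, the RefSeq promoter windows of the members, each from 250 bases before a transcription start to 50 bases after it, were searched on both strands for 4 motifs. Windows were at hand for 25 of the 33 members (RefSeq, GRCm38.p6), and none for Fdps, Fdft1, Sqle, Stard4, Scd1, Scd2, Abcg1 and Lpl. The core of the sterol element of SREBP proteins, TCACNCCAC with N for any base, was in the window of 1 member, Hmgcs1, and in those of 1.44% of 27025 genes. A CCAAT box, CCAAT or its complement ATTGG, to which the factor NF-Y binds, was in the windows of 20 of 25 members and of 41.1% of all genes. It was in 9 of 9 genes of the squalene steps, 5 of 6 of the mevalonate steps, 4 of 4 of sterol sensing, 2 of 3 of fatty acid synthesis and 0 of 3 of efflux, transport and uptake. The windows of Acaca and Nr1h3, counted here as without a box, lay inside the gene, so that its outermost start was not searched. The E-box CACGTG was in the windows of 5 members and of 8.09% of all genes. A DR4 element of the LXR kind was in those of 0 members and of 0.0148% of all genes. Some genes have several windows, which raises their chance of a match, and a match is a run of letters and not a binding site. Only exact matches were counted, so that forms of a motif with other letters were missed.

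The 250 bases before the start are shown for Hmgcs1, which holds the sterol core, for Insig1 and Msmo1, the members with a window that fell most from Cap-L to Bell-L, and for Apoe, the member that rose most in culture. The last 3 were chosen after their values were seen. Each is given 5′ to 3′ on the strand of the gene, placed on GRCm39 by an exact match, with CCAAT boxes and the sterol core in capitals. Hmgcs1 lies at chr13:120151637-120151886 on the plus strand, Insig1 at chr5:28276160-28276409 on the plus strand, Msmo1 at chr8:65186613-65186862 on the minus strand and Apoe at chr7:19433114-19433363 on the minus strand.
Hmgcs1: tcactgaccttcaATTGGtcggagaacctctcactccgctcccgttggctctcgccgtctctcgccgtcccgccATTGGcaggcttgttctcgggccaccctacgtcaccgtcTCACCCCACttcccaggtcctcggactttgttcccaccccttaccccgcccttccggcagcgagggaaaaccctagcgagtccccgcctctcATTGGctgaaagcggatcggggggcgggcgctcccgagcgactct
Insig1: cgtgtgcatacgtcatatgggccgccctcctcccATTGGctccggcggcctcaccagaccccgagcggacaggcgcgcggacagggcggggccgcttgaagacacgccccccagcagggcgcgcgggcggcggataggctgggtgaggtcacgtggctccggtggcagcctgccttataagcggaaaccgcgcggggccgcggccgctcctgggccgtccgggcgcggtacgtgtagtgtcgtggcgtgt
Msmo1: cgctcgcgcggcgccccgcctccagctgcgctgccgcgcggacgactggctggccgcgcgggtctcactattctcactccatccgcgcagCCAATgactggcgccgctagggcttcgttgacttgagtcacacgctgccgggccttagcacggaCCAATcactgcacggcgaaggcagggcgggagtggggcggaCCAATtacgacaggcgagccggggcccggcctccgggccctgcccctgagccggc
Apoe: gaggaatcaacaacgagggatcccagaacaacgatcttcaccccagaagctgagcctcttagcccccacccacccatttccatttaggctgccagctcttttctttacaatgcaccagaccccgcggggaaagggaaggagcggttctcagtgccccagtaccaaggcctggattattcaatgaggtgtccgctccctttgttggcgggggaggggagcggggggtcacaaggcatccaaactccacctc
In Hmgcs1 the sterol core starts 137 bases before the transcription start and CCAAT boxes start 237, 176 and 45 bases before it. Msmo1 has CCAAT boxes at 160, 96 and 55 bases and Insig1 at 216 bases before the start, while no capitals stand in the stretch of Apoe.

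**Figure D3:**
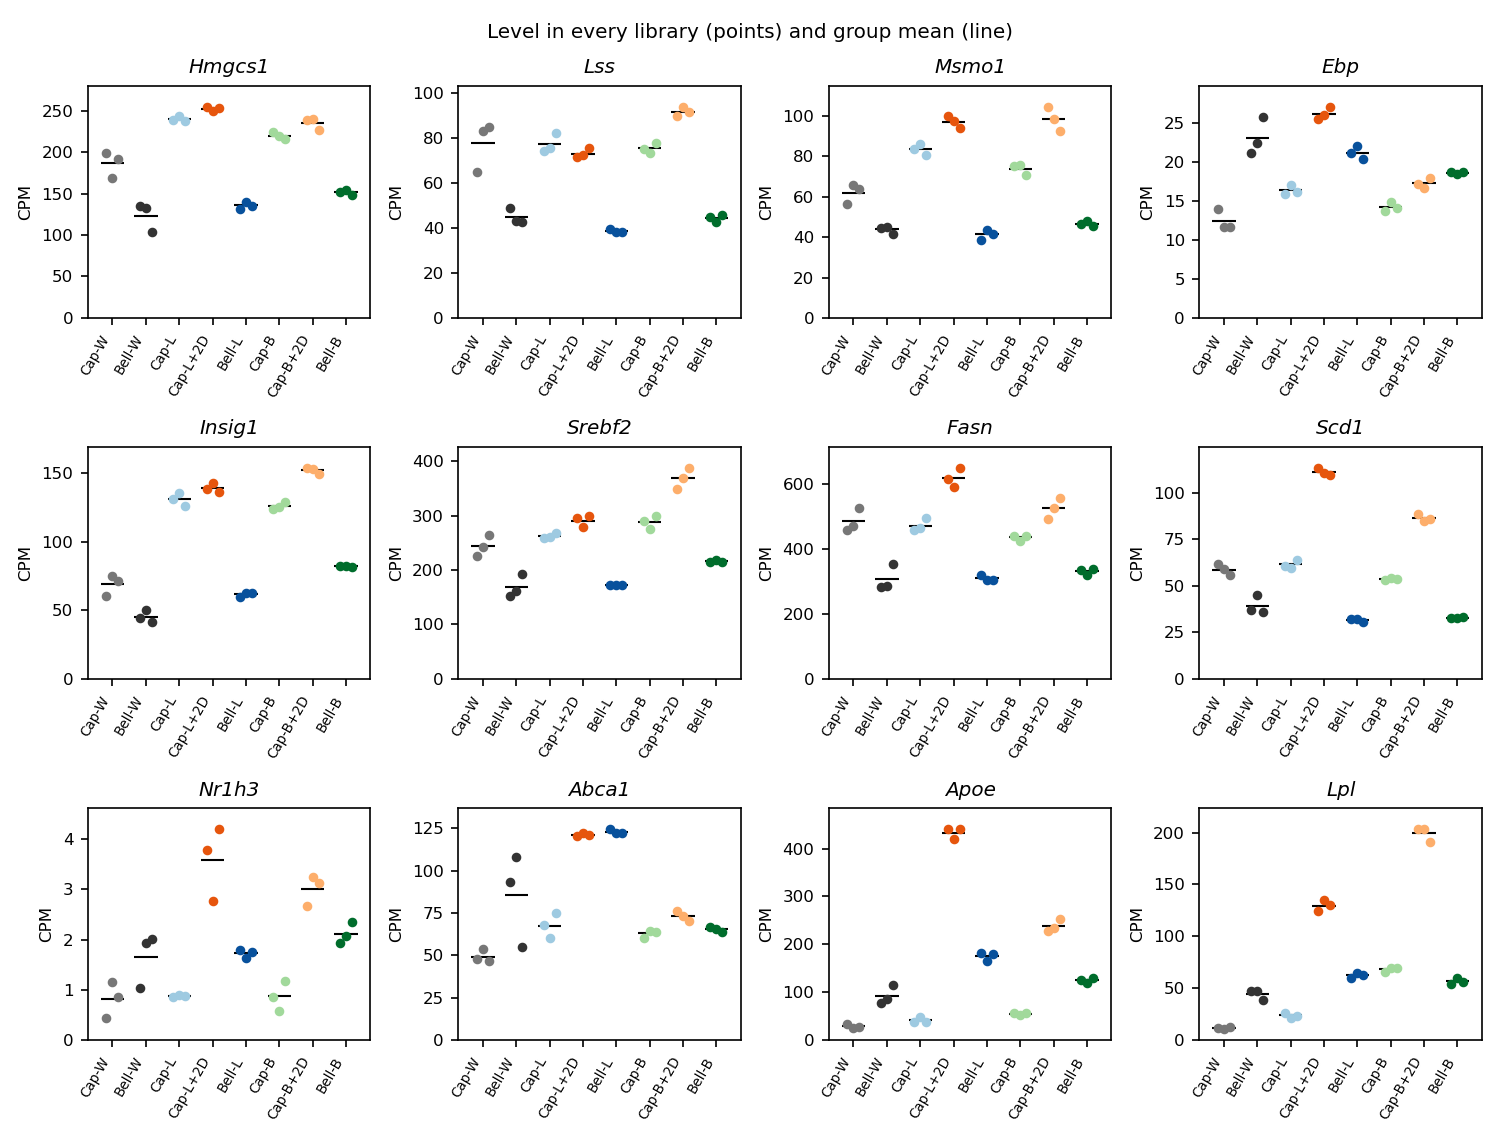
CPM of 12 of the genes in every library (points, 3 per group) with the group mean (line), each panel on its own linear axis from 0. Hmgcs1, Lss, Msmo1, Insig1, Srebf2, Fasn and Scd1 are lower in the bell group than in the cap and cultured groups of each part, Ebp is not, and Nr1h3, Apoe and Lpl are highest in the cultured groups.

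Of the 5 genes of fatty acid synthesis, 2 were called lower in Bell-L and 1 in Bell-B. Scd1, the desaturase that makes oleate, was at 60.7, 59.8 and 64.2 CPM in Cap-L, 32.3, 32.1 and 30.7 CPM in Bell-L and 113, 111 and 109.8 CPM in Cap-L+2D. The buccal libraries had it at 53.1, 54.1 and 54 CPM in Cap-B, 32.6, 33 and 33.3 CPM in Bell-B and 88.9, 84.7 and 86.1 CPM in Cap-B+2D. No groups of a side overlapped, and Scd1 was the member that both fell in vivo and rose in culture on both sides. It fell by 0.95 ± 0.05 (adjusted p = 1.75e-14) and 0.71 ± 0.04 (adjusted p = 1.26e-15) from cap to bell and rose by 0.86 ± 0.04 (adjusted p = 7.37e-15) and 0.67 ± 0.04 (adjusted p = 1.4e-16) from cap to culture, lingual before buccal. Between bell and culture the difference came to 1.81 ± 0.05 (adjusted p = 1.33e-20) on the lingual side, which was larger than that of any other member on that side.

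Fasn, fatty acid synthase, was at 458, 464 and 495 CPM in Cap-L, 321, 304 and 306 CPM in Bell-L and 618, 591 and 650.2 CPM in Cap-L+2D. The 3 groups stood apart from each other. It fell by 0.60 ± 0.05 (adjusted p = 5.6e-11) to Bell-L, had -0.40 ± 0.04 (adjusted p = 4.63e-11) without a call to Bell-B, and was higher in culture than at the bell stage by 1.00 ± 0.05 (adjusted p = 1.64e-15) in the lingual and 0.65 ± 0.04 (adjusted p = 8.59e-17) in the buccal part. Scd2, the desaturase form with the highest level per kilobase among the members, was at 854, 831 and 889 CPM in Cap-L, 763, 781 and 756 CPM in Bell-L and 1084, 1113 and 1081 CPM in Cap-L+2D. Among the comparisons of 2 groups it was called only between Bell-L and Cap-L+2D, at 0.51 ± 0.04 (adjusted p = 1.05e-10), and that call was lost without Cap-L+2D replicate 2 and without Bell-L replicate 3, at 0.50 each. Acly, which supplies cytosolic acetyl-CoA, was likewise called only there, at 0.56 ± 0.04 (adjusted p = 6.1e-11), with 216, 216 and 213 CPM in Bell-L against 317, 307 and 329.6 CPM in Cap-L+2D. Acaca, the carboxylase that makes malonyl-CoA, ranged from 42.2 to 75.4 CPM over the 24 libraries. Its largest log2 fold change between 2 groups, -0.45 ± 0.11 (adjusted p = 0.0341) from Cap-W to Bell-W, lay under the limit on the fold.

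Of the 5 genes of efflux, transport and uptake, 4 were called higher in Bell-L and 2 in Bell-B than at the cap stage, and 5 were called higher in the lingual and 3 in the buccal culture. Apoe, the apolipoprotein that carries lipid out of cells and is made in quantity by macrophages, had the largest change of the 33. It was at 38.4, 49 and 37.4 CPM in Cap-L, 182, 165 and 180.2 CPM in Bell-L and 441, 419 and 440.3 CPM in Cap-L+2D. In the buccal part it was at 56.4, 51.1 and 56.2 CPM in Cap-B, 126, 119 and 128 CPM in Bell-B and 227, 234 and 253 CPM in Cap-B+2D. The order cap, bell, culture held on both sides with no overlap. Apoe rose in culture by 3.38 ± 0.07 (adjusted p = 6.51e-23) in the lingual and 2.10 ± 0.04 (adjusted p = 1.16e-28) in the buccal part, and from cap to bell by 2.08 ± 0.07 (adjusted p = 2.54e-18) and 1.18 ± 0.05 (adjusted p = 8.06e-21).

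Lpl, the lipase that frees fatty acids from lipoproteins for uptake, was at 26.4, 21.2 and 23.4 CPM in Cap-L, 60.1, 64.8 and 62.2 CPM in Bell-L and 124, 135 and 130.1 CPM in Cap-L+2D. On the buccal side it was at 65.9, 69.3 and 69.1 CPM in Cap-B, 53.7, 59.8 and 55.9 CPM in Bell-B and 203, 203 and 191 CPM in Cap-B+2D. Culture stood highest on both sides, while the buccal bell libraries lay below the buccal cap libraries and the lingual ones above. Lpl rose in culture by 2.47 ± 0.06 (adjusted p = 1.98e-21) and 1.53 ± 0.04 (adjusted p = 4.98e-26), rose to Bell-L by 1.41 ± 0.06 (adjusted p = 8.83e-16), and had -0.28 ± 0.04 (adjusted p = 1.76e-06) to Bell-B, without a call.

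Nr1h3, the receptor gene, was low throughout. It was at 0.859, 0.891 and 0.883 CPM in Cap-L, 1.79, 1.64 and 1.76 CPM in Bell-L and 3.78, 2.77 and 4.2 CPM in Cap-L+2D. Buccal libraries held 0.858, 0.586 and 1.17 CPM in Cap-B, 1.94, 2.06 and 2.35 CPM in Bell-B and 2.66, 3.24 and 3.13 CPM in Cap-B+2D. The cultured libraries lay above all others on their side, and it rose by 2.04 ± 0.18 (adjusted p = 4.11e-10) and 1.75 ± 0.20 (adjusted p = 1.92e-09).

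Abca1 and Abcg1, the pumps that load cholesterol onto lipoproteins, were called higher in the lingual and not in the buccal culture. Abca1 was at 67.7, 60.3 and 74.7 CPM in Cap-L, 125, 122 and 122 CPM in Bell-L and 121, 122 and 121 CPM in Cap-L+2D, and the buccal libraries of all 3 groups lay between 60.3 and 76.4 CPM. Bell and culture libraries overlapped on the lingual side, and both lay above cap, by 0.88 ± 0.05 (adjusted p = 1e-12) and 0.85 ± 0.05 (adjusted p = 6.24e-13). Abcg1 was at 8.62, 9.27 and 10.4 CPM in Cap-L, 12.2, 10.4 and 10.1 CPM in Bell-L and 17.1, 16.1 and 17.5 CPM in Cap-L+2D. Its rise in lingual culture was 0.85 ± 0.08 (adjusted p = 1.83e-09), with 0.48 ± 0.10 (adjusted p = 7.25e-05) and no call in the buccal culture, where it was called at 0.51 with no filter on low counts, at 0.55 without Cap-B replicate 1 and at 0.57 without Cap-B+2D replicate 2.

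Most macrophage markers stood higher in culture and at the bell stage than at the cap stage, as did most of these 5 genes. The exception was Bell-B, where Lpl lay lower than in Cap-B and only 2 of the 5 were called higher. Of 10 markers listed, 9 were called higher in Cap-L+2D than in Cap-L and 7 in Cap-B+2D than in Cap-B, and 10 and 9 were called higher at the bell stage on the lingual and the buccal side. Their summed level was 92.8 to 96.6 CPM in Cap-L, 381 to 387 CPM in Bell-L and 282 to 299 CPM in Cap-L+2D, and 103 to 108 CPM, 201 to 206 CPM and 189.6 to 197 CPM in the buccal groups in that order. No marker of the list was at 0 in any of these groups. From bell to culture the sum was lower on both sides, but 6 of 10 markers on the lingual and 7 of 10 on the buccal side had a higher level in culture, with median log2 fold changes of 0.18 and 0.21, and few were called, 1 higher and 2 lower on the lingual and 2 higher and 2 lower on the buccal side. Over the same step Apoe was higher in culture by 1.30 ± 0.06 (adjusted p = 3.18e-15) and 0.92 ± 0.04 (adjusted p = 7.75e-20) and Lpl by 1.05 ± 0.05 (adjusted p = 1.6e-14) and 1.81 ± 0.04 (adjusted p = 5.75e-28). Skeletal muscle markers moved with culture as well. All 7 were called higher in culture than at the cap stage on both sides. Their sums were 22.8 to 23.5 CPM in Cap-L and 271 to 289 CPM in Cap-L+2D. On the buccal side they were 231 to 242 CPM in Cap-B and 3304 to 3482 CPM in Cap-B+2D. From cap to bell all 7 were called higher on both sides too. The bell sums were 118 to 127 CPM in Bell-L and 849 to 867 CPM in Bell-B. The part of either cell type in the rise from cap to culture and from cap to bell was not tested.

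Proliferation markers were set beside the synthesis genes, since dividing cells need membrane sterol. Of 8 markers, none was called between Cap-L and Bell-L, where 20 members fell, with a summed level of 1139 to 1158 and 1108 to 1113 CPM. At an unadjusted p under 0.05, 4 markers were lower and 1 higher in Bell-L, and DESeq2 called 0. In culture 7 of the 8 were called lower on the lingual and 2 on the buccal side, at 636 to 657 and 821 to 826 CPM, while no gene of sterol synthesis was called lower there. In the buccal part, where 9 members fell from cap to bell, 1 marker was called higher and 5 were higher at an unadjusted p under 0.05, with sums of 1169 to 1174 CPM in Cap-B and 1295 to 1315 CPM in Bell-B. Erythroid and epithelial sums were highest at the bell stage and lowest in culture on both sides. The erythroid means at cap, at bell and after culture were 1937, 3523 and 22.1 CPM (lingual) and 2093, 3063 and 26.2 CPM (buccal). The epithelial means were 533, 813 and 430 CPM and 385, 585 and 89.3 CPM in that order. Macrophage and skeletal muscle sums were instead lowest at the cap stage, as given above. The part of cell division or of these cell types in any of these changes was not tested.

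**Figure D4:**
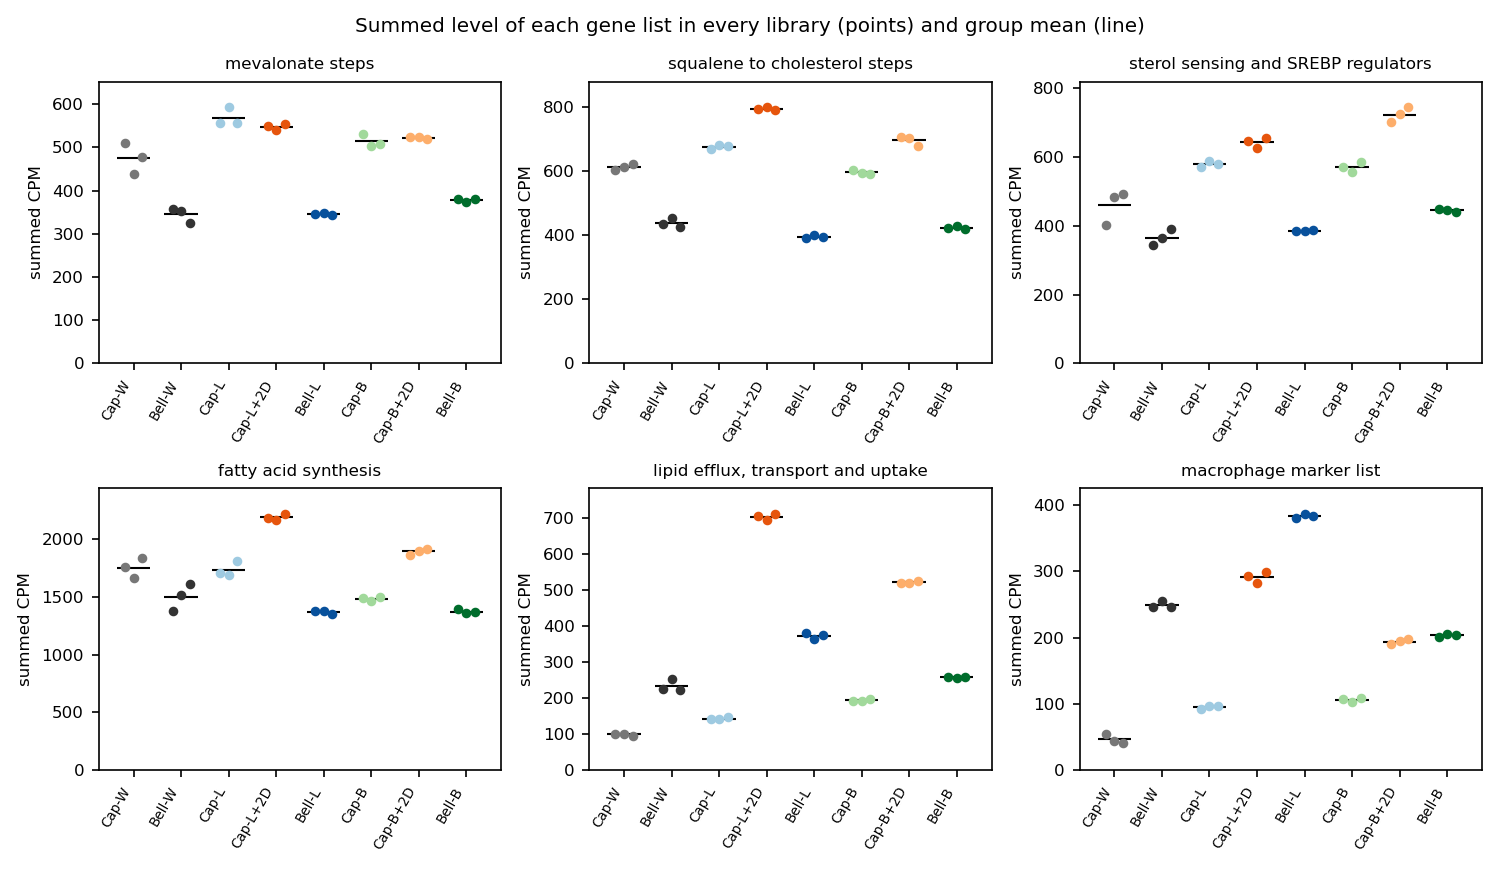
Summed CPM of each role's genes and of 10 macrophage markers in every library (points) with the group mean (line), on linear axes from 0. The sums of both groups of sterol synthesis steps are lowest in the bell groups, and the sum of the efflux, transport and uptake genes is highest in the cultured groups, at 705 CPM on average in Cap-L+2D and 523 CPM in Cap-B+2D.

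Few members differed between the sides past the limit on the fold, while smaller differences were common, with 22 of the 33 at an unadjusted p under 0.05 at the cap stage, 21 at the bell stage and 24 after culture. At the cap stage 19 of these were lower and 3 higher in the buccal part. There 1 member was called higher in the buccal part, against 10.4% of all genes, and 1 lower, against 7.10%. The higher one was Lpl, at 65.9, 69.3 and 69.1 CPM in Cap-B and 26.4, 21.2 and 23.4 CPM in Cap-L, with a log2 fold change, buccal minus lingual, of 1.55 ± 0.07 (adjusted p = 9.56e-13). Skeletal muscle markers stood higher in the buccal part too, with a sum of 231 to 242 CPM in Cap-B and 22.8 to 23.5 CPM in Cap-L. At the bell stage their sum was 849 to 867 CPM against 118 to 127 CPM, whereas Lpl had -0.14 ± 0.04 (adjusted p = 0.00497) and was not called. Their part in the difference at the cap stage was not tested.

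The member lower in the buccal part was Insig2, at 24.4, 26.2 and 25.1 CPM in Cap-B and 40.8, 40.6 and 38.3 CPM in Cap-L. Its log2 fold change, buccal minus lingual, was -0.64 ± 0.06 (adjusted p = 2.43e-08) at the cap stage, -0.50 ± 0.05 (adjusted p = 2.37e-11) at the bell stage and -0.87 ± 0.05 (adjusted p = 1.1e-13) after culture, and its libraries did not overlap between the sides in any of these. At the bell stage 0 members were called higher in the buccal part, against 6.00% of all genes, with 14 at an unadjusted p under 0.05 and 0 by DESeq2, and 2 were called lower, against 6.88%. Beside Insig2 the second was Abca1, at 67, 65.6 and 63.7 CPM in Bell-B and 125, 122 and 122 CPM in Bell-L, a difference of -0.91 ± 0.03 (adjusted p = 1.35e-24). The call of Insig2 at the bell stage sat at the limit of 0.5 and was lost without Bell-L replicate 3 or Bell-B replicate 1, at -0.49 each.

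After culture 1 member was called higher in the buccal part and 6 were called lower, against 12.5% and 12.5% of all genes. The higher one was Lpl, by 0.61 ± 0.04 (adjusted p = 1.61e-12). The lower ones were Apoe, Insig2, Abcg1, Abca1, Ebp and Cyp51. Apoe was at 227, 234 and 253 CPM in Cap-B+2D and 441, 419 and 440.3 CPM in Cap-L+2D, a difference of -0.87 ± 0.04 (adjusted p = 1.29e-15). Abcg1 was at 10.7, 8.19 and 9.69 CPM against 17.1, 16.1 and 17.5 CPM, by -0.83 ± 0.08 (adjusted p = 3.48e-09), and Abca1 at 76.4, 73.3 and 70.5 CPM against 121, 122 and 121 CPM, by -0.73 ± 0.04 (adjusted p = 4.11e-14). Of the 2 synthesis genes, Ebp differed by -0.61 ± 0.06 (adjusted p = 1.83e-09) and Cyp51 by -0.58 ± 0.04 (adjusted p = 2.64e-12). In none of these 7 genes did the libraries of the sides overlap. The macrophage sum was also higher in Cap-L+2D, as given above, with 6 of 10 markers called lower in the buccal culture. Other cell types differed too. All 7 endothelial markers were called lower, with sums of 175 to 182 CPM in Cap-B+2D and 428 to 434 CPM in Cap-L+2D, as were 7 of 9 epithelial markers, at 88.7 to 89.8 and 414 to 444 CPM. All 7 skeletal muscle markers were called higher, at the sums given above. The part of these cells in the differences after culture was not tested.

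**Figure D5:**
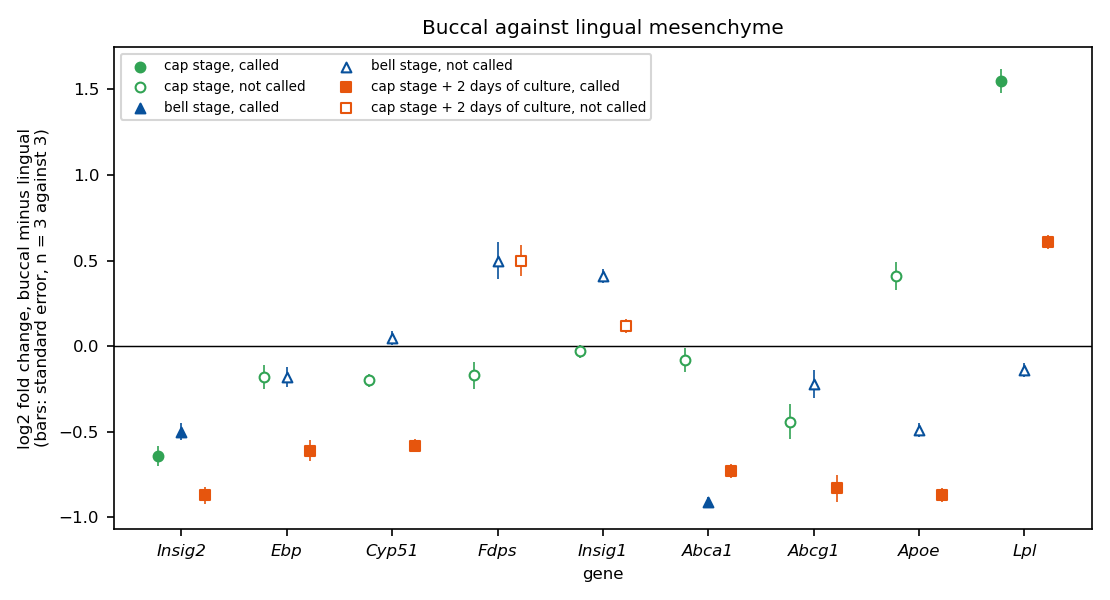
Log2 fold change, buccal minus lingual, of 9 genes at the cap stage (circles), at the bell stage (triangles) and at the cap stage plus 2 days of culture (squares), filled where called, with standard errors from edgeR (3 libraries against 3). Insig2 is below 0 at all 3, Lpl is at 1.55 at the cap stage and near 0 at the bell stage, and Apoe goes from 0.41 at the cap stage to -0.87 after culture.

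Whether the change itself differed between the sides was tested with an interaction over 12 libraries, counted at an adjusted p under 0.05 with no limit on the fold. For the change from cap to bell, 25 of the 33 members passed, against 32.5% of all genes. In 22 of them the buccal change was the higher one, which for the genes that fell means a smaller fall in the buccal part. These 22 included 9 of 11 genes of the squalene steps, 4 of 7 of the mevalonate steps, 4 of 5 of sterol sensing and 5 of 5 of fatty acid synthesis. Among the largest were Fdps with 0.66 ± 0.13 (adjusted p = 0.000129), Insig1 with 0.44 ± 0.06 (adjusted p = 2.91e-07), Acat2 with 0.36 ± 0.06 (adjusted p = 1.69e-05) and Idi1 with 0.35 ± 0.07 (adjusted p = 0.000222). The 3 with the higher change in the lingual part were Lpl, Apoe and Abca1, at -1.70 ± 0.08 (adjusted p = 1.29e-16), -0.91 ± 0.09 (adjusted p = 1.96e-09) and -0.84 ± 0.07 (adjusted p = 2.74e-10). With all 24 libraries in 1 fit, where the spread of the undivided mesenchyme enters, 11 members passed. In the test over 12 libraries, 7 of 8 proliferation markers also passed with the higher change in the buccal part. Their median was 0.28, beside 0.22 for the members and -0.02 for all genes. The part of cell division in these differences was not tested.

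For the change in culture 15 members passed, against 35.5% of all genes, so that the share of the members was near the background. The change was higher in the lingual part for 9 of them, among which were 4 of the 5 genes of efflux, transport and uptake. Apoe had an interaction of -1.28 ± 0.09 (adjusted p = 1.39e-12), Lpl of -0.95 ± 0.08 (adjusted p = 2.11e-11), Abca1 of -0.66 ± 0.08 (adjusted p = 2.88e-08) and Abcg1 of -0.38 ± 0.13 (adjusted p = 0.0257). Cyp51, Ebp, Insig2, Scd1 and Sqle lay on the same side, between -0.43 and -0.18. The 6 with the higher change in the buccal part were Fdps, at 0.66 ± 0.12 (adjusted p = 6.53e-05), and Lss, Srebf1, Fdft1, Srebf2 and Insig1, between 0.15 and 0.32. With all 24 libraries in 1 fit 8 members passed, and the call of Abcg1 was lost without any 1 of 4 libraries, Cap-L replicate 1, Cap-L+2D replicate 3, Cap-B replicate 1 and Cap-B+2D replicate 2, with an adjusted p of up to 0.111.

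The undivided mesenchyme gave a second view of the step from cap to bell. In Bell-W 12 members were called lower than in Cap-W, against 4.21% of all genes, and 3 higher, against 10.3%, with a median of -0.29 over the members and -0.03 over all genes. The 12 were Lss, Mvd, Fasn, Cyp51, Insig1, Hmgcs1, Sqle, Scd1, Srebf2, Acat2, Hsd17b7 and Msmo1, with log2 fold changes from -0.81 to -0.51. Lss, the first of these, was at 64.8, 83.1 and 84.8 CPM in Cap-W and 49, 43.2 and 42.5 CPM in Bell-W, without overlap, a fall of 0.81 ± 0.14 (adjusted p = 0.0084). Mvd was at 45.9, 37.2 and 40.2 CPM and 22.6, 22.5 and 26.9 CPM and fell by 0.79 ± 0.13 (adjusted p = 0.00553). The 3 that rose were Lpl, Apoe and Ebp. Lpl was at 11.8, 10.5 and 12.4 CPM in Cap-W and 46.8, 46.8 and 38.1 CPM in Bell-W, a rise of 1.91 ± 0.13 (adjusted p = 0.000295), and Apoe at 33.8, 25.9 and 26.4 CPM and 76.7, 85.6 and 114 CPM, a rise of 1.67 ± 0.18 (adjusted p = 0.00118). The count of 12 rested on few libraries, being 12 without Cap-W replicate 1, 7 without Cap-W replicate 2, 4 without Cap-W replicate 3, 5 without Bell-W replicate 1, 6 without Bell-W replicate 2 and 9 without Bell-W replicate 3. All 10 macrophage markers were called higher in Bell-W, with sums of 246 to 255 CPM against 41.2 to 54.3 CPM, and all 7 endothelial markers as well, with sums of 404 to 499 CPM against 205 to 214 CPM. The epithelial sum was 593, 499 and 2147 CPM in Bell-W, so that replicate 3 stood apart, against 374 to 563 CPM in Cap-W. Their part in these changes was not tested.

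Further genes of these routes were taken from 4 lists. Of 14 other genes of sterol synthesis and uptake, 4 were called higher in the lingual and 3 in the buccal culture, near the 19.6% and 17.9% of all genes, and 3 were called lower from Cap-L to Bell-L, against 5.78%. Npc1, the lysosomal exporter of cholesterol, was at 45.7, 39.5 and 46.5 CPM in Cap-L and 82.2, 89.6 and 84.1 CPM in Cap-L+2D, a rise of 0.97 ± 0.05 (adjusted p = 5.86e-14), and it rose in the buccal culture by 0.70 ± 0.04 (adjusted p = 5.51e-17). Its lysosomal partner Npc2 rose in the lingual culture by 0.84 ± 0.05 (adjusted p = 5.88e-14). Of 11 other regulators, 2 were called higher and 1 lower in the lingual culture, and 3 were called higher in the buccal one, again near the background, which for lower calls was 15.9% in the lingual culture. Pparg, a receptor that drives lipid storage, was at 0.752, 1.11 and 0.883 CPM in Cap-L and 2.79, 2.49 and 2.16 CPM in Cap-L+2D. It rose by 1.40 ± 0.19 (adjusted p = 4.15e-07) in the lingual culture. Its buccal change is not reported here, and the highest log2 fold change of the 11 in the buccal culture was 2.60. Mylip, an LXR target that marks lipoprotein receptors for breakdown, rose by 0.70 ± 0.04 (adjusted p = 9.48e-14) and 0.57 ± 0.03 (adjusted p = 2.18e-16). Ppara, a receptor of fatty acid oxidation genes, fell by 0.59 ± 0.19 (adjusted p = 0.0107) in the lingual culture.

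Of 24 other genes of fatty acid synthesis and storage, 9 were called higher and 1 lower in the lingual and 12 and 3 in the buccal culture. Over all genes 19.6% and 15.9% were called in these directions in the lingual and 17.9% and 16.6% in the buccal culture. The count of lower calls lay under the background in the lingual culture and near it in the buccal one. Me1, the malic enzyme that supplies NADPH, rose by 1.63 ± 0.08 (adjusted p = 1.57e-15) and 1.40 ± 0.09 (adjusted p = 3.38e-15), and Acsl4, which activates long fatty acids, by 0.76 ± 0.06 (adjusted p = 6.44e-11) and 1.66 ± 0.06 (adjusted p = 1.22e-22). Lpin1, a phosphatidate phosphatase, rose by 1.32 ± 0.07 (adjusted p = 4.12e-14) and 0.80 ± 0.08 (adjusted p = 5.08e-11). Of 19 other transport and oxidation genes, 12 were called higher in the lingual and 11 in the buccal culture, and 0 were called lower in either, with 0 and 1 lower at an unadjusted p under 0.05 and 0 and 0 by DESeq2. Cd36, a receptor that takes up fatty acids and lipoproteins, was at 3.76, 4.09 and 3.96 CPM in Cap-L, 8.53, 9.16 and 8.41 CPM in Bell-L and 40.9, 41.4 and 39.1 CPM in Cap-L+2D, with the cultured libraries far above the rest. It rose in culture by 3.36 ± 0.07 (adjusted p = 2.24e-22) and 3.24 ± 0.09 (adjusted p = 7.66e-25). Fabp4 and Fabp3, binders of fatty acids in the cytosol, stayed low. Fabp4 was at 1.04, 0.724 and 0.848 CPM in Cap-L and 4.89, 4.92 and 4.37 CPM in Cap-L+2D and rose by 2.45 ± 0.16 (adjusted p = 1.09e-12), while its Cap-B libraries were under the level of 3 counts, so that no fold is given there. Fabp3 was at 0.429, 0.557 and 0.247 CPM in Cap-L and 2.05, 1.65 and 1.85 CPM in Cap-L+2D and rose by 2.12 ± 0.25 (adjusted p = 4.03e-08). Most macrophage and all skeletal muscle markers were called higher in culture too, as given above, and their part in these rises was not tested.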

How the data were processed

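RNA of 24 mesenchyme libraries in 8 groups of 3 was sequenced. After trimming and alignment, the authors deposited raw, unscaled counts of read pairs for 56748 genes. Per the file headers, featureCounts 2.0.0 counted paired reads over the exons of Ensembl release 107 of GRCm39, without strand, and pairs with more than 1 place or gene were not counted, so that overlapping genes and genes with near-identical copies are undercounted. The labels name a SMARTER kit and Bowtie 1.2.3, the paper a TruSeq Stranded kit and STAR, and the difference could not be resolved. Of the genes, 56017 were named by identifier from GENCODE M39.

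Groups were taken from the labels. The 33 members, their roles and the lists of other genes were chosen with earlier results of these data known. Counts were fitted in R 4.3.3 with edgeR 4.0.16 (TMM, filterByExpr, quasi-likelihood test, Benjamini-Hochberg adjustment over all genes tested), in 1 fit per side or pair of groups. Values after ± are standard errors of a log2 fold change unless named SD. A call needed an adjusted p under 0.05 together with an absolute log2 fold change above 0.5, and interactions at an adjusted p under 0.05. The scripts were tested on simulated counts. With 3 libraries against 3, an exact permutation test cannot give a two-sided p below 0.10, so none was run. Values in every library were given, for each role, for up to 4 members with the largest changes among those called in culture, completed by level, and for members called between sides or that went against their role. Other genes of the routes were named up to 3 per list by size of change in culture, and values of some listed genes are not reported here.

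Alternatives were RLE scaling, no filter, at least 10 counts in every library, DESeq2 1.42.0, a block for the replicate number, 1 fit of all 24 libraries, and each library left out in turn. Totals of 20581720 to 39266497 counts put 3 counts at 0.0764 to 0.146 CPM, a floor for counting error alone, with PCR duplicates unmarked. Same-numbered libraries were checked for pairing and did not deviate together, with correlations between -0.080 and 0.090.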

Additional observations from a re-analysis of the deposited data

Results flagged for a closer look

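The tests of a difference between the sides picked out the following results. The change from cap to bell differed between the lingual and the buccal part in 25 of the 33 members and the change in culture in 15, at an adjusted p under 0.05 in edgeR over 12 libraries. Over all genes 32.5% and 35.5% passed, so that the count in culture lay near the background. Past an absolute log2 value of 0.5, the change from cap to bell was lower in the buccal part by 1.70 for Lpl (-1.70, adjusted p = 1.29e-16), by 0.91 for Apoe (-0.91, adjusted p = 1.96e-09) and by 0.84 for Abca1 (-0.84, adjusted p = 2.74e-10), and higher there for Fdps (0.66, adjusted p = 0.000129). For the change in culture the same 4 genes passed, at -0.95 for Lpl (adjusted p = 2.11e-11), -1.28 for Apoe (adjusted p = 1.39e-12), -0.66 for Abca1 (adjusted p = 2.88e-08) and 0.66 for Fdps (adjusted p = 6.53e-05). Both tests share the cap stage libraries. Of 8 proliferation markers, 7 passed with a change from cap to bell that was higher in the buccal part, and their part was not tested. Macrophage markers differed in the same direction as Apoe, Lpl and Abca1, 10 of 10 for the change from cap to bell and 9 of 10 for the change in culture. Other lists did so as well. In culture these were 6 of 7 endothelial, 7 of 9 epithelial and 7 of 9 dental mesenchyme markers, with 0, 2 and 1 the other way. From cap to bell they were 5 of 7 skeletal muscle and 6 of 9 dental mesenchyme markers, with 1 and 0 the other way. The part of all these cell types was not tested. Groups of 3 libraries were too small for the test of single libraries that stand apart.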

How the results depend on the processing

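Of the 168 values of single members that were called or given with a test, none turned its direction under any alternative, and 35 lost their call under at least 1. The 25 members with their highest mean in culture became 27 with RLE scaling. With all 24 libraries in 1 fit, the interactions of side with stage and with culture fell to 11 and 8 members, and the members called higher in Bell-W rose to 5, since the spread of all groups is then shared. Members called lower in Bell-B than in Bell-L were 1 with RLE scaling and 1 with DESeq2, and those called higher were 1 with RLE scaling and 1 without the filter. Members called higher in Cap-B+2D than in Cap-L+2D were 2 with at least 10 counts in every library, with all 24 libraries in 1 fit and with the replicate block. The replicate number as a block, where no pairing was found, changed no other count by over 1.5 times, with 7 members called higher in the lingual culture and 19 lower in Bell-L. With each library left out in turn, members called lower in Bell-W ranged from 4 to 12, those called higher and lower in Cap-B against Cap-L from 1 to 2 and 1 to 2, in Bell-B against Bell-L from 0 to 1 and 1 to 3, and higher in Cap-B+2D against Cap-L+2D from 1 to 2. The count of 1 higher at the bell stage came without Bell-L replicate 1 or 2 or Bell-B replicate 1 or 2, and that of 2 higher after culture without Cap-L+2D replicate 2 or Cap-B+2D replicate 1 or 2. The counts of 2 at the cap stage came without Cap-L replicate 2 for the higher and without Cap-L replicate 1 or Cap-B replicate 1 for the lower count. Depth limits Nr1h3, Fdps and Abcg1 most, whose counts were the lowest of the members. The cause of these changes was otherwise not tested.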
